A study of Drosophila melanogaster with 3 samples.

Results

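The translation initiation factor genes are the protein-coding genes of Drosophila melanogaster whose symbol starts with eIF and a digit in the Ensembl annotation of the dm6 genome. There are 44 of them among 13945 protein-coding genes. Their binding was measured by ChIP-seq, the sequencing of DNA that is immunoprecipitated with a chromatin protein, here the nuclear receptor Hr3, which the labels also call Hr46. The 3 biological replicates form 1 group of whole embryos of a transgenic line, aged 0 to 24 h and of both sexes, in which green fluorescent protein (GFP) was fused to the C-terminus of Hr3 and an antibody to GFP was used. There is no second genotype, treatment or stage, so gene sets are described within this group and no groups of samples are compared. The labels name a control library, which was not analysed here, so a peak that would arise in flies with no tagged Hr3 is not told apart here. The material is the whole embryo, so fewer cells with a bound site and weaker binding per cell cannot be told apart.

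Initiation factors bring a ribosome to the start codon of an mRNA. eIF4 proteins bind and unwind the capped end of the mRNA, eIF2 delivers the initiator tRNA and is recharged by its exchange factor eIF2B, and eIF3 is the large scaffold on the small ribosomal subunit. eIF1, eIF1A and eIF5 act in scanning and start codon choice, and eIF5B joins the ribosomal subunits. Hr3 is an orphan nuclear receptor induced by the steroid hormone ecdysone, known for its place in the gene cascade that times fly development, and it binds DNA at the ROR response element (RORE).

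A gene was counted as bound when the authors' reproducible peak list, made from all 3 replicates, had a summit within 500 bp of any of its transcription start sites (TSSs). By this measure 11 of the 44 initiation factor genes were bound, or 25%, beside 23.9% of all protein-coding genes (3332 of 13945). The share of bound members was therefore near that of the genome. The bound genes were eIF1, eIF2A, eIF2D, eIF3a, eIF3c, eIF3h, eIF3m, eIF4A, eIF4EHP, eIF5B and eIF6. The relaxed lists, which the authors called in each replicate and which keep weak peaks, placed a promoter peak in all 3 replicates at 20 members (45.5%), beside 36.6% of all protein-coding genes. No replicate had a relaxed promoter peak at 14 members (31.8%), beside 39.2% of all protein-coding genes. These shares are descriptions of the peak lists, and their differences from the genome were not tested.

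Signal is the strength the authors' peak caller gave to a peak, and its scale differs between replicates. The value of a gene in a replicate is the signal of its strongest relaxed peak with a summit within 500 bp of a TSS. It is given as relative signal, which is this value divided by the replicate's median signal at the reproducible peaks. Those medians were 40.4, 81.2 and 68.6 in replicates 1, 2 and 3, taken over the 5293, 5341 and 5330 of the 5357 reproducible peaks whose summit lay in a relaxed peak of that replicate. No reads or read counts are in these peak lists, so depth is unknown and no counting interval is given. The relaxed lists held 25578, 27006 and 23582 peaks. The median relative signal of the 11 bound members was 1.72, 1.78 and 1.84 in replicates 1, 2 and 3. Over all bound genes it was 1.16, 1.19 and 1.16. With the replicates averaged for each gene first, the medians were 1.79 for the members and 1.15 for all bound genes. The direction depends on the promoter width and the list: it was 1.01 for the members and 1.11 for all bound genes at 200 bp, and 0.72 and 0.822 in the pooled relaxed list limited to its top 10000 peaks. The members ran over a wide range, as the plot of all 44 genes shows: eIF6 and eIF4EHP had a relative signal of at least 6.64 in every replicate, 5 genes lay between 1.45 and 2.55, and eIF2A, eIF3a, eIF2D and eIF4A lay between 0.516 and 1.19.

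**Figure D1:**
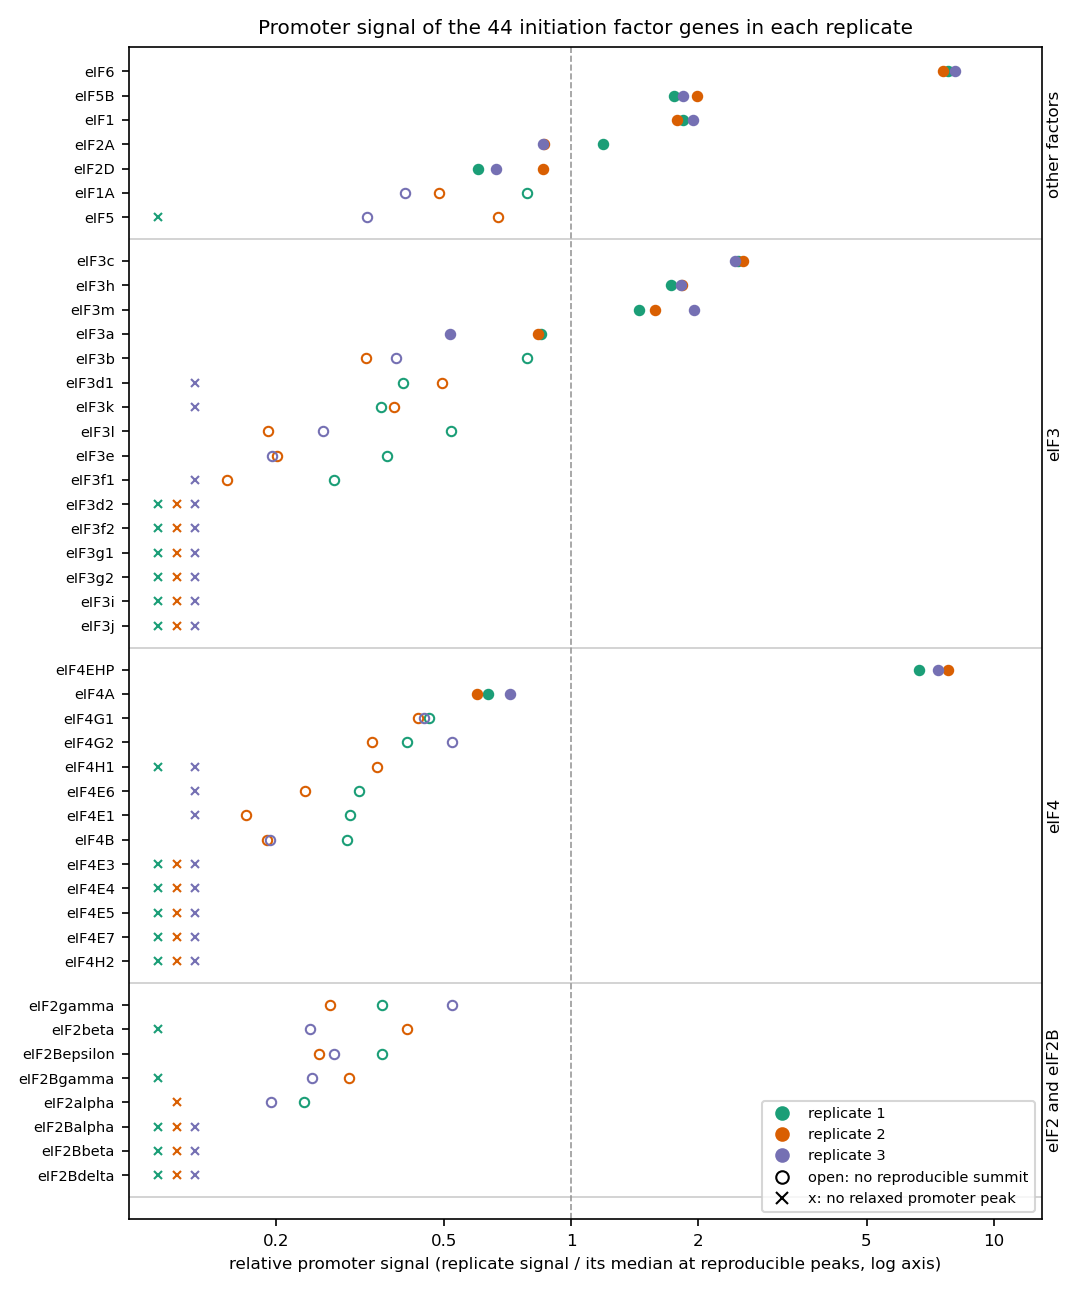
Relative promoter signal of the 44 initiation factor genes (log axis), grouped by complex, with 1 colour for each replicate. Filled points are the 11 genes with a reproducible promoter summit, open points have relaxed peaks only, and crosses at the left mark replicates with no relaxed promoter peak. eIF6 and eIF4EHP lie from 6.64 to 8.08, and no other member exceeds 2.55.

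Promoter sequences are shown for 4 bound members. eIF4EHP and eIF4A were chosen because they were the highest and the lowest bound eIF4 genes. eIF1 was chosen because the stronger of its pair of summits lies near a housekeeping promoter element. eIF3a was chosen because the interval between its start and that of its divergent neighbour holds the same element. They come from the RefSeq genome sequence of Release 6, the assembly of dm6, and run 5′ to 3′ on the strand of the gene. Capitals mark the 11 bases at the summit in eIF4EHP and eIF4A. In eIF1 and eIF3a they mark the DNA replication-related element (DRE, TATCGATA), the site of the housekeeping promoter factor DREF. The eIF4EHP stretch is chr3R:24109088-24109288 (minus strand, 20.4% GC), the eIF1 stretch chr3L:3223030-3223329 (plus strand, 28.7% GC), the eIF4A stretch chr2L:5981284-5981484 (plus strand, 25.4% GC) and the eIF3a stretch chr3R:4433896-4433964 (minus strand, 58.0% GC).
eIF4EHP: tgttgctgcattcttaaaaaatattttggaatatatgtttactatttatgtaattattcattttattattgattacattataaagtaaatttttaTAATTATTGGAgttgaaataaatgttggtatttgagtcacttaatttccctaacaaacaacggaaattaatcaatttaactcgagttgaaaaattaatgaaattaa
eIF4A: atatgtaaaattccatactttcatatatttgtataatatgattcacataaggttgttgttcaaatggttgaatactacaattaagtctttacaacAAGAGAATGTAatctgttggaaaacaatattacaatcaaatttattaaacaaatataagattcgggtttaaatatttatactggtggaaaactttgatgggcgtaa
eIF1: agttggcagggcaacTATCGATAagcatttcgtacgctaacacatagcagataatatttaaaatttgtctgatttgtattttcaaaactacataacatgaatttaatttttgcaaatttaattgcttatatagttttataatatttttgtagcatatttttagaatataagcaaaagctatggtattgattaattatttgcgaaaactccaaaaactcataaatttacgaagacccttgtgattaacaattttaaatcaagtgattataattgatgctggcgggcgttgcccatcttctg
eIF3a: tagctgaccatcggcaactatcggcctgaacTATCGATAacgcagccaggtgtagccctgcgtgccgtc

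The eIF4EHP and eIF4A stretches lie between genes and are rich in A and T, whereas the short eIF3a interval is the most GC-rich of the 4. In the 101 bp around the strongest summit, GC content over the 11 bound members had a median of 31.7%, with 18.8% at eIF4EHP as the lowest and 46.5% at eIF3a as the highest. The median over all bound genes was 30.7%. The strongest summit lay upstream of the member's TSS at 8 of 11 genes (72.7%), beside 90.7% of bound genes, with a median position of 87 bp upstream, beside 146 bp upstream for all bound genes. The other 3 were eIF2A and eIF3m, with a summit exactly at a TSS, and eIF3h, with its summit 285 bp downstream. In replicates 1, 2 and 3 the strongest relaxed peak lay upstream at eIF2A (32, 52 and 8 bp) and at eIF3m (68, 63 and 1 bp). Both thus count as not upstream by the reproducible summit alone. The strongest reproducible summit also lay within 500 bp of a TSS of another protein-coding gene at 6 of 11 members (54.5%), beside 61.4% of bound genes. Those neighbours were CG18428 at eIF4EHP, RpL28 at eIF1, senju at eIF3h, CG8323 at eIF3m, CG1074 at eIF3a and chic at eIF4A. Each was transcribed on the opposite strand, away from the initiation factor TSS nearest to the summit. At eIF3h, senju starts inside the annotated span of eIF3h, upstream of that TSS. At eIF4EHP, eIF1, eIF3a and eIF4A the neighbour's TSS was the nearer one, so a peak there cannot be credited to the initiation factor gene alone. The map of summit positions shows these neighbours.

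**Figure D2:**
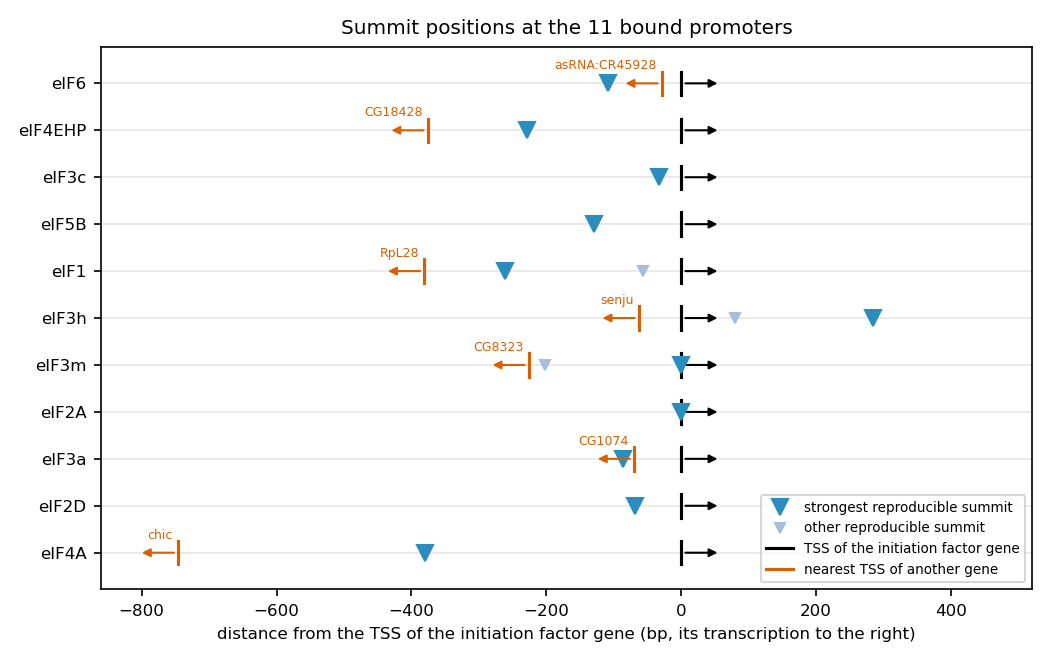
Summit positions at the 11 bound promoters, as the distance in bp from the nearest TSS of the initiation factor gene, with transcription to the right. Large triangles are the strongest reproducible summit, small ones a further summit, and orange bars with arrows the nearest TSS of another gene within 500 bp of the strongest summit and its direction. The strongest summits of eIF6, eIF4EHP, eIF1, eIF3a and eIF4A lie closer to the other gene's TSS than to that of the initiation factor gene. At eIF6 the other gene is the antisense transcript asRNA:CR45928.

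Among the factors outside the large complexes, 5 of 7 genes were bound (71.4%), beside 23.9% of all protein-coding genes, a difference that was not tested. Of these, eIF2D was lost without replicate 2 and without replicate 3, where 19.7% and 20.2% of all protein-coding genes were bound. The highest of the 5 was eIF6, which keeps the large ribosomal subunit from joining the small one too early. Its peak at chr2R:23850213-23850594 had a raw signal of 315, 616 and 554 in replicates 1, 2 and 3, or a relative signal of 7.81, 7.59 and 8.08. The mean was 7.83 ± 0.242 (SD, n = 3), above 99.3% of bound genes, and the peak ranked 26 of 5357 in the reproducible list. The summit lay 108 bp upstream of the eIF6 TSS and inside an exon of the divergent antisense transcript asRNA:CR45928, 79 bp from the TSS of that transcript. Peak position does not separate these transcripts.

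eIF5B, the GTPase of subunit joining, had relative signals of 1.75, 1.98 and 1.84 at chr3L:3460502-3460961 (1.86 ± 0.115, SD, n = 3). Its summit fell 129 bp upstream of the nearest TSS, in the 5′ UTR of another eIF5B transcript. In replicate 2 the strongest peak had its summit 17 bp away, but the relaxed peak that contains the reproducible summit was a weaker one of 0.20, and with it the mean is 1.26. eIF1, which guards start codon choice, had relative signals of 1.84, 1.78 and 1.94 (1.85 ± 0.0799). Its stronger summit, in chr3L:3222942-3223123, lay 261 bp upstream and 120 bp from the TSS of RpL28, a ribosomal protein gene, and the weaker one, in chr3L:3223055-3223514, lay 56 bp upstream of eIF1. The values of eIF5B and eIF1 overlapped, and neither was higher in all of them.

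The other bound genes of this group were weaker. eIF2A, a factor for initiation that can bypass eIF2, had relative signals of 1.19, 0.862 and 0.856 (0.97 ± 0.192, SD, n = 3) at chr3L:21824735-21825194, with the summit at a TSS in its 5′ UTR. eIF2D, which binds the initiator tRNA outside the main route, had 0.603, 0.857 and 0.663 (0.708 ± 0.133) at chr3R:29151632-29152091, with the summit 68 bp upstream. eIF2A was higher than eIF2D in all 3 replicates, though by a log2 ratio of 0.01 in replicate 2. The unbound genes were eIF1A, the partner of eIF1 in scanning, and eIF5, the activator of the eIF2 GTPase. eIF1A had relaxed peaks in all 3 replicates, at 0.785, 0.486 and 0.404 (0.559 ± 0.20), the highest mean among the unbound members with peaks in all 3. eIF5 had none in replicate 1, and 0.671 and 0.329 in replicates 2 and 3.

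Of the 16 eIF3 subunit genes, 4 were bound (25%), close to the 23.9% of all protein-coding genes. The highest was eIF3c, a core subunit that contacts eIF1 and eIF5, with relative signals of 2.48, 2.55 and 2.44 (2.49 ± 0.0577, SD, n = 3) at chr2R:17665516-17665767, 33 bp upstream of its TSS and with no other gene's TSS in reach. eIF3h, which in vertebrates and plants tunes initiation on selected mRNAs, had 1.72, 1.83 and 1.82 (1.79 ± 0.0641) from a summit in its intron at chr2L:5052362-5052562, and a weaker reproducible summit in its coding exon at chr2L:5052471-5052930. eIF3m, a subunit of the same core, had 1.45, 1.58 and 1.95 (1.66 ± 0.262) at chr2R:14164595-14165054, with a second, weaker summit 24 bp from the TSS of CG8323. eIF3c exceeded eIF3h and eIF3m in all 3 replicates, whereas eIF3h exceeded eIF3m in 2 of 3.

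The lowest of the 4 was eIF3a, the largest subunit and the backbone of the complex, with 0.85, 0.833 and 0.516 (0.733 ± 0.188, SD, n = 3) at chr3R:4433752-4434211. Its summit lay 87 bp upstream, in the 5′ UTR of CG1074 and 17 bp from the TSS of that gene. All 4 bound subunits belong to the core built from PCI and MPN domain proteins, 4 of 9 genes (44.4%), and none of the other 7 eIF3 genes was bound, beside 23.9% of all protein-coding genes. That split was made after the values were seen, and the difference was not tested. In the core, 3 of 3 genes with more than 1 TSS were bound, and 1 of 6 with 1 TSS (16.7%). Over all protein-coding genes these shares were 37.9% and 18.8%. Of the other 7 genes, 2 had more than 1 TSS. The pooled relaxed list limited to its top 10000 peaks added eIF3b and eIF3d1, both outside the core. In that list 33.8% of all protein-coding genes were bound. In the same core, eIF3l had relaxed signals of 0.518, 0.192 and 0.258, and eIF3e, another of its PCI subunits, had 0.367, 0.201 and 0.196. Outside it, eIF3b, a scaffold of the peripheral module, had 0.788, 0.327 and 0.384. The replicate 1 value of eIF3b lay within the range of eIF3a, and its values in replicates 2 and 3 lay below all 3 of eIF3a. eIF3d1, eIF3f1 and eIF3k had relaxed peaks in 2 replicates, and eIF3d2, eIF3f2, eIF3g1, eIF3g2, eIF3i and eIF3j in none.

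Among the 13 eIF4 genes, 2 were bound (15.4%), beside 23.9% of all protein-coding genes. The count was 1 without replicate 2 and 1 without replicate 3, where eIF4A was lost, beside 19.7% and 20.2% of all protein-coding genes. It was 0 at 200 bp, beside 16.9% of all protein-coding genes. It was also 0 when a summit counted for the nearest gene only, beside 17.5%. Both genes were lost in these settings. By their means they were the next to highest and the lowest of the 11 bound members. eIF4EHP, a cap-binding protein that represses translation of selected mRNAs such as caudal and hunchback, had raw signals of 268, 633 and 507 at chr3R:24108930-24109417. Its relative signals were 6.64, 7.80 and 7.39 (7.27 ± 0.587, SD, n = 3), above 99.0% of bound genes, and the peak ranked 30 of 5357. The summit lay in the AT-rich stretch printed above, 228 bp upstream of eIF4EHP and 148 bp upstream of CG18428. eIF4A, the helicase that unwinds the mRNA leader, had relative signals of 0.636, 0.599 and 0.715 (0.65 ± 0.0593) at chr2L:5981154-5981613, above 11.3% of bound genes. Its summit lay 380 bp upstream and 366 bp from the TSS of chic, the profilin gene. In replicate 1 the strongest promoter peak of eIF4A lay 65 bp upstream of a different TSS, 1145 bp from the reproducible summit. The peak that contains that summit was at 0.316 in replicate 1, which gives a mean of 0.543.

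Among the 7 eIF4E paralogues, eIF4EHP was the bound one (14.3%), beside 23.9% of all protein-coding genes. eIF4E1, the main cap-binding protein, had relaxed promoter peaks of 0.299 and 0.17 in replicates 1 and 2 and none in replicate 3. eIF4E6 had 0.314 and 0.235 in replicates 1 and 2 and likewise none in replicate 3. eIF4E3, known for its role in spermatogenesis, and eIF4E4, eIF4E5 and eIF4E7 had no relaxed promoter peak in any replicate, 4 of 7 (57.1%), beside 39.2% of all protein-coding genes. The lowest eIF4EHP value, 6.64, was thus far above every value of its paralogues. The summit behind it lies nearer the TSS of CG18428, so this value cannot be credited to eIF4EHP alone. The scaffold genes eIF4G1 and eIF4G2, the second of which acts in male germ cells, had relaxed peaks in all 3 replicates: 0.461, 0.433 and 0.448 at eIF4G1, and 0.408, 0.338 and 0.523 at eIF4G2. eIF4G1 was higher in replicates 1 and 2 and eIF4G2 in replicate 3. eIF4B, a helper of the helicase, had 0.294, 0.191 and 0.194, eIF4H1 had 0.347 in replicate 2 alone, and eIF4H2 had no peak.

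None of the 8 genes for eIF2 and eIF2B was bound, beside 23.9% of all protein-coding genes. eIF2gamma, the GTPase subunit of eIF2, had relaxed signals of 0.357, 0.269 and 0.523 (0.383 ± 0.129, SD, n = 3). eIF2Bepsilon, the catalytic subunit of the exchange factor, had 0.356, 0.253 and 0.275 (0.295 ± 0.0541). Both lay below the lowest value of eIF4A from its strongest promoter peak in every replicate. eIF2alpha, the subunit phosphorylated under stress, had relaxed peaks of 0.233 and 0.195 in replicates 1 and 3, and eIF2beta and eIF2Bgamma had peaks in replicates 2 and 3 between 0.241 and 0.409. eIF2Balpha, eIF2Bbeta and eIF2Bdelta had none within 500 bp.

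For the 5 factors with a numbered pair of gene copies (eIF3d, eIF3f, eIF3g, eIF4G and eIF4H), none of the 5 first copies and none of the 5 second copies was bound, beside 23.9% of all protein-coding genes. In the relaxed lists, 4 of 5 second copies (eIF3d2, eIF3f2, eIF3g2 and eIF4H2) had no promoter peak in any replicate, against 1 of 5 first copies (eIF3g1) and 39.2% of all protein-coding genes. With 5 genes in each set, that difference was not tested. Genes with more than 1 annotated TSS offer more windows in which a summit can fall. Among members with more than 1 TSS, 6 of 15 were bound (40.0%), beside 37.9% of such protein-coding genes, and among members with 1 TSS 5 of 29 (17.2%), beside 18.8%. Both shares were near those of all genes with the same feature.

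Set in one order, the 11 bound members fell into steps that the replicates kept and neighbours that they did not. A sign test over 3 replicates cannot go below a two-sided p of 0.25, so only the number of replicates is given. eIF6 was above eIF4EHP in 2 of 3 replicates, with a mean log2 ratio of 0.11 ± 0.14 (SD, n = 3), so these are not separated beyond their spread. eIF4EHP was above eIF3c in 3 of 3, by 1.54 ± 0.11 on the log2 scale. eIF3c was above eIF5B in 3 of 3, by 0.42 ± 0.07. eIF5B, eIF1, eIF3h and eIF3m followed closely, and neighbours among them changed places between replicates. eIF3m was above eIF2A in 3 of 3 (0.78 ± 0.46), and eIF2A above eIF3a in 3 of 3 (0.42 ± 0.34), though by 0.05 in replicate 2. eIF3a, eIF2D and eIF4A changed places with each other. The lowest bound mean, 0.65 at eIF4A, and the highest unbound mean, 0.559 at eIF1A, were close, and in replicate 1 eIF1A was the higher one. The cumulative plot sets the 11 members among all bound genes.

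**Figure D3:**
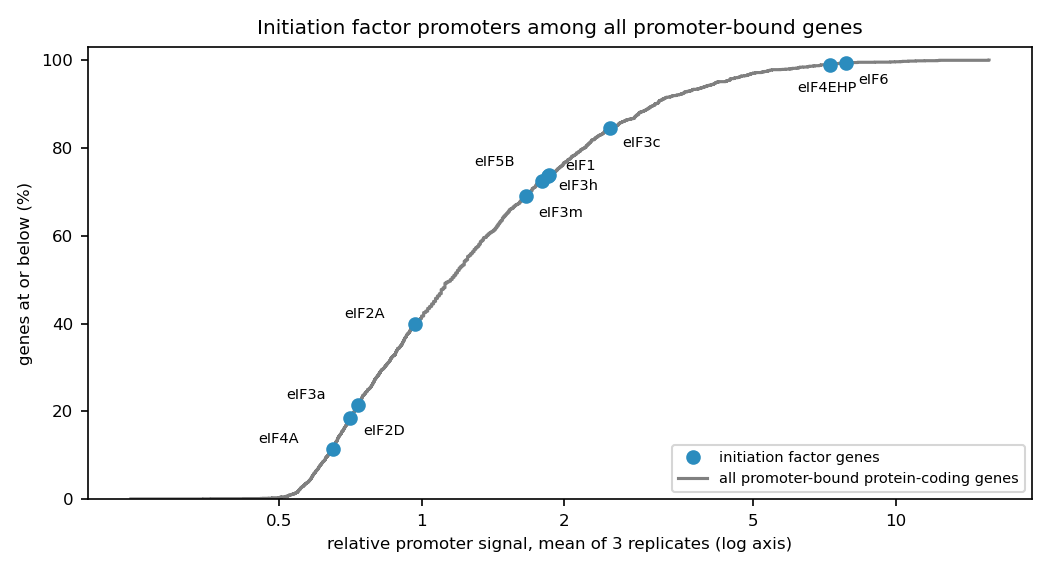
Relative promoter signal, as the mean of 3 replicates (log axis), against the percentage of the 3332 promoter-bound protein-coding genes at or below it. The grey line is all bound genes and the blue points are the 11 initiation factor genes. eIF6 and eIF4EHP lie at the top end of the bound genes, and eIF4A, eIF2D, eIF3a and eIF2A lie below the middle of the line.

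Promoters with more than 1 reproducible summit were those of eIF1, eIF3h and eIF3m, 3 of 11 members (27.3%), beside 14.0% of bound genes. Their summits were 205, 206 and 202 bp apart. This spacing belongs to the list as a whole: of 384 neighbouring summits under 500 bp apart, 326 (84.9%) were 190 to 220 bp apart, with a median of 204 bp and a minimum of 199 bp. At eIF3m the highest relaxed peak that contained one summit had the same signal as that for the other in every replicate, at 1.45, 1.58 and 1.95, so the highest relaxed peak spanned both. Replicates 2 and 3 had 2 relaxed promoter peaks there. At eIF1 and eIF3h the values for both summits were equal in replicate 3 only, at 1.94 and 1.82.

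The DRE, searched on both strands, was present within 100 bp of a promoter summit at 3 of 11 bound members (27.3%), beside 9.33% of bound genes. They were eIF1, eIF3a and eIF2A, and the difference in share was not tested. At eIF1 the element printed in capitals above lies 31 bp from the stronger summit, on the side of RpL28, and at eIF3a it lies 52 bp from the summit, on the side of eIF3a. At eIF2A it lies 85 bp from the summit. The count depends on the window: within 50 bp it was eIF1 alone, beside 4.38% of bound genes, and within 200 bp it was 6 members (54.5%), with eIF3c, eIF4A and eIF6 added, beside 17.3% of bound genes. The RORE, the known site of Hr3, was found within 100 bp at eIF6, 88 bp from the summit, beside 1.11% of bound genes. It was not found in that window at the other 10 members. The element Ohler 7 was found within 100 bp at eIF1, beside 13.1% of bound genes. Motif 1, Ohler 6, the CTCF core and the CACGTG E-box were found within 100 bp at no member. Their shares of bound genes were 2.88%, 1.32%, 3.42% and 2.46%. Within 200 bp Motif 1 was found at eIF5B (9.09%), beside 7.23% of bound genes. The E-box was then found at eIF2A and eIF6 (18.2%), beside 6.63%. Ohler 7 was found at eIF1, eIF3c and eIF3m (27.3%), beside 24.9%. A match describes the letters in the window and not an occupied site.

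Reproducible summits also lay near or inside member genes but outside the 500 bp window. Their relative signals are those of the highest relaxed peak that contains the summit. The strongest was by eIF2Bbeta, at chrX:2703659-2704121, 674 bp upstream of its TSS and 45 bp from that of the sugar transporter gene Ugalt. It ranked 5 of 5357, with relative signals of 12.6, 11.6 and 12.5 (12.2 ± 0.538, SD, n = 3), higher in each replicate than any bound member's promoter. By eIF2Bdelta a weaker summit lay 756 bp upstream, in the 3′ UTR of roh. Past the downstream end of eIF2beta, a summit of 2.63, 2.90 and 2.94 lay 194 bp from the TSS of Gcn5, and past that of eIF3g1 one of 1.06, 1.52 and 1.37 lay 114 bp from the TSS of Smyd3. Weaker reproducible summits lay near CG32448 by eIF2A, ifc by eIF4A and CG4080 by eIF4E1. Inside genes, eIF5B held 5 intronic summits, between 9930 and 27718 bp from its nearest TSS. The strongest of them, at 1.34, 2.02 and 2.02, had a mean of 1.79 ± 0.392 (SD, n = 3). By the same measure the eIF5B promoter had 1.75, 0.20 and 1.84, with a mean of 1.26. The strongest promoter peak of eIF5B gave a mean of 1.86, so the order depends on the measure. eIF4EHP held 2 intronic summits, the stronger at 1.38, 1.42 and 1.36, well below its promoter value. The nearest TSS to both was that of Syx1A, 6587 bp from the stronger and 710 bp from the weaker one. For 3 of the 5 eIF5B summits, the strongest included, the nearest TSS was that of sty, between 7950 and 13741 bp away.

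Regulators of initiation form a separate list of 20 genes, of which 8 were bound (40.0%), beside 23.9% of all protein-coding genes, with a median relative signal of 1.09. Of those with more than 1 TSS, 6 of 14 were bound (42.9%), beside 37.9% of such protein-coding genes. With 1 TSS it was 2 of 6 (33.3%), beside 18.8%. These differences were not tested. The highest of the 8 bound regulators was mTor, the kinase that couples nutrients to translation, at 2.13, 2.04 and 1.68 (1.95 ± 0.236, SD, n = 3), from a summit shared with Vha68-1. pix, a ribosome recycling ATPase, had 1.62, 1.56 and 1.33 with Srp68 as its neighbour, and kra, an eIF5-like protein, had 1.41, 1.25 and 1.14 beside SecS. pAbp, the poly(A)-binding protein, was the least even, at 0.678, 1.60 and 2.19, with its summit 476 bp downstream of a TSS. mxt, an eIF4G-like eIF4E partner, had 0.694, 1.22 and 0.848, MCTS1, a partner of DENR in reinitiation, had 0.517, 0.948 and 0.553, and Paip2, an inhibitor of pAbp, had 0.641, 0.613 and 0.504. Thor, the eIF4E-binding protein, had a reproducible summit 26 bp upstream, with 0.615 and 0.888 in replicates 2 and 3 and no relaxed promoter peak in replicate 1.

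The kinases of eIF2alpha, Gcn2 and PEK, were not bound, nor were crc (the fly ATF4), PPP1R15, 4E-T, NAT1, DENR, Lk6, bel, vas and S6k, all of which had relaxed peaks in 2 or 3 replicates. The translational repressor cup had none. Lk6, the kinase of eIF4E1, and NAT1, an eIF4G relative, had the highest relaxed means among these, at 0.607 ± 0.302 and 0.602 ± 0.255 (SD, n = 3). A pair of genes with an eIF name among their synonyms were added after the values were seen. eEF5, formerly eIF5A, was bound at 1.20, 0.832 and 0.371, and CG7483, the fly eIF4A3, had no relaxed promoter peak.

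Other genes of the translation machinery had larger bound shares in these lists than the initiation factors. Of 92 cytoplasmic ribosomal protein genes 61 were bound (66.3%), and of 35 aminoacyl-tRNA synthetase genes 18 (51.4%), beside 11 of 44 initiation factor genes (25%) and 23.9% of all protein-coding genes. The median relative signal of the bound genes was 1.79 for the initiation factors, 1.08 for the ribosomal proteins, 1.17 for the synthetases and 1.15 for all genes, with the initiation factors below all genes at the 200 bp width given above. These lists were not tested against each other. The chart of bound shares gives the counts.

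**Figure D4:**
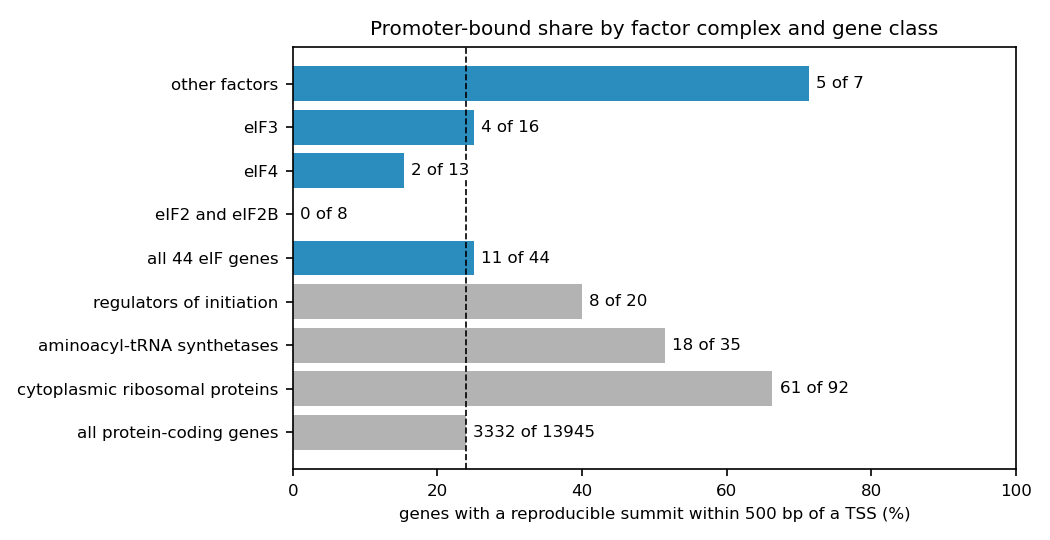
Share of genes with a reproducible summit within 500 bp of a TSS, in percent, with counts beside the bars. Blue bars are initiation factor genes by complex and in all, grey bars the other lists, and the dashed line is the share over all protein-coding genes. The 7 factors outside the large complexes have the longest bar (71.4%), and the 8 genes of eIF2 and eIF2B have none.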

How the data were processed

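Peaks of GFP-tagged Hr3 from 3 biological replicates of whole embryos, a single group, were analysed on dm6. Per the labels, sonicated chromatin measured 200 to 800 bp. Which aligner, caller and threshold were used is not given in the sources used here. Per the deposited text files, relaxed peaks were called by the authors for every replicate and for the pooled reads, and they derived the reproducible list from them by the irreproducible discovery rate. The deposited signal of each peak is the authors' caller's value. It is never negative and has no common scale between lists, and the deposited offset of the summit gave its position.

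Genes and TSSs of all transcripts came from Ensembl release 115 (BDGP6.54), and sequence from the RefSeq genome. Sequences of elements were matched on both strands. A summit counted for every gene with a TSS within 500 bp. Relative signal is a replicate's strongest relaxed promoter peak over its median at the reproducible peaks, with mean and SD over 3 replicates. For summits outside the 500 bp window, the highest relaxed peak that contains the summit was used instead. Python 3.11.15, NumPy 2.4.6, pandas 2.3.3, SciPy 1.17.1 and matplotlib 3.10.9 were used, and the assignment of summits to genes was tested on simulated data. No test between samples or gene lists was made, because there is 1 group and genes are not replicates.

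The members and lists were chosen with earlier results of these data known. Every member is named; bound members, members with relaxed peaks in all 3 replicates and paralogues of bound members have values, and outside the members only neighbours at a summit and the listed regulators are named. Genes next to summits beyond the 500 bp window, eEF5 and CG7483 were named after their values were seen. The alternatives were other promoter widths, TSS sets, assignments, peak lists, signal scales and element windows, and leaving out each replicate. The replicate's peak that contains the reproducible summit was added after seeing the data.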

Additional observations from a re-analysis of the deposited data

How the results depend on the processing

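The count of bound initiation factor genes, 11 in the report, was 8 to 13 under all alternatives but the pooled relaxed list limited to its top 10000 peaks, where it was 18 (eIF1A, eIF2gamma, eIF3b, eIF3d1, eIF4G1, eIF4G2 and eIF5 were added), beside 33.8% of all protein-coding genes. In the alternatives with 8 to 13 bound members, the share of all protein-coding genes was 14.6% to 27.0%. The eIF3 count of 4 stayed between 3 and 6. It was 6 in the pooled relaxed list, beside 33.8% of all protein-coding genes, where eIF3b and eIF3d1, both outside the core, were added. The eIF4 count of 2 was 0 at a promoter width of 200 bp, beside 16.9% of all protein-coding genes. It was also 0 when a summit counted for the nearest gene only, beside 17.5%. Both alternatives removed eIF4A and eIF4EHP. The eIF4 count was 1 when the peak had to overlap the TSS, beside 16.4% of all protein-coding genes. It was 1 in the upper part of the reproducible list by signal, beside 14.6%. Among peaks strong in all 3 replicates it was 1, beside 19.0%, and in the pooled relaxed list 4, beside 33.8%. The eIF2 and eIF2B count of 0 was 2 at 1000 bp (eIF2Bbeta and eIF2Bdelta), beside 27.0% of all protein-coding genes. It was 1 in the pooled relaxed list (eIF2gamma), beside 33.8%.

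Without replicate 1 eIF3a was lost, without replicate 2 eIF2D, eIF3a and eIF4A, and without replicate 3 eIF2D and eIF4A. The counts were then 8 to 10 for all members and 1 to 2 for eIF4. The share of all protein-coding genes also fell from 23.9%, to 20.7%, 19.7% and 20.2% without replicates 1, 2 and 3. Genes outside the members were thus lost as well, and whether the members lost a larger part was not tested. The median relative signal of 1.79 was 1.01 at 200 bp, beside 1.11 for all bound genes, so the members were then the lower set. It was 0.72 in the pooled relaxed list, beside 0.822. It was 1.66 with canonical TSSs, 1.85 in the upper part by signal, 1.85 among peaks strong in all 3 replicates, and 1.81 to 1.84 with a replicate left out. At 200 bp eIF4EHP and eIF4A dropped out. The stronger summits of eIF1 and eIF3h, 261 and 285 bp from the TSS, also lay outside that window. The pooled relaxed list added the unbound genes named above. How much of each move these changes make up was not tested. With canonical TSSs the count of bound members stayed at 11, so the median of 1.66 there comes without a change in that count. No paired analysis was possible because there is 1 group. Sequencing depth is unknown, a control library was not analysed here, and 3 replicates limit every SD.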
